A study of Mus musculus with 6 samples.

Results

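The genes described here are 37 mouse genes that fold, modify, import and discard proteins in the endoplasmic reticulum (ER), chosen by symbol from the 32285 genes in the count matrices. All 37 symbols were found. They comprised 11 chaperones and co-chaperones, 5 genes of disulfide bond formation, 8 genes of ER-associated degradation (ERAD), 3 stress sensor genes, and 10 genes of protein entry into the ER. Single-cell RNA was measured in islets from 6 mice on a C57/BL6 background at 12 to 14 weeks of age, 3 of them WT and 3 β14-3-3ζ–KO, with 1 library per mouse. KO mice carried the Ins1-CreThor allele, which is active in β cells, and LoxP sites around exon 4 of *Ywhaz*, the gene of 14-3-3ζ. The WT controls were Cre-positive littermates. Islets recovered overnight in culture before dispersion, and dead cells were removed. Since each library is 1 mouse, values are given per library as unique molecular identifiers (UMIs, counts of captured RNA molecules) summed over the cells of a class.

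Insulin and the other islet hormones are made as precursors that cross the ER membrane through the Sec61 channel, lose their signal peptide, and fold with the help of BiP (*Hspa5*) and its partners while disulfide bonds are closed by protein disulfide isomerases and Ero1 oxidases. Chains that fail to fold are returned to the cytosol by ERAD, with the Sel1l-Syvn1 ligase complex at its core. The unfolded protein response adjusts this machinery through sensors that include Ire1α (*Ern1*), which splices the *Xbp1* mRNA, and Atf6. Spliced Xbp1 and Atf6 act on promoter elements of chaperone genes, and β cells are known for a high load on this system.

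The promoters of some of these genes carry the ER stress response element (ERSE), a CCAAT box and a CCACG box held apart by a fixed spacer, which is bound through NF-Y together with Atf6 or spliced Xbp1. RefSeq promoters on build GRCm38.p6, from 250 bases before to 50 bases after the gene's start, were found for 28 of the 37 genes and searched on both strands. The ERSE, searched as CCAAT and CCACG with any 9 bases between them, was in 9 of the 28 promoters (32.14%), against 37 of 27025 genes with a promoter in the same table (0.1369%). The shorter ERSE-II, searched as ATTGG and CCACG with any 1 base between them, was in 2 of 28 (7.143%) against 12 genes in all (0.0444%). The core of the UPRE, TGACGTGG, and the cyclic AMP element, TGACGTCA, which share their first 6 letters, were in 0 of the 28 windows and in 0.7142% and 2.031% of all genes. The ERSE genes were *Hspa5*, *Hsp90b1* (in 2 places), *Calr*, *Canx*, *Dnajc3*, *Creld2*, *Pdia6*, *Syvn1*, and *Derl3*, and the ERSE-II genes were *Dnajb11* and *Herpud1*. Stretches around the motif are shown for 8 genes that return below with their levels, 5′ to 3′ on the strand of the gene, with the motif in capitals in whichever direction it was found.
Hspa5, chr2:34772015-34772053 (+): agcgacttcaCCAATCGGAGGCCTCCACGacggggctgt
Pdia6, chr12:17266481-17266519 (+): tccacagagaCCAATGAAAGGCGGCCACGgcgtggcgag
Dnajc3, chr14:118937817-118937855 (+): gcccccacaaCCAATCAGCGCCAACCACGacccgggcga
Canx, chr11:50325790-50325828 (-): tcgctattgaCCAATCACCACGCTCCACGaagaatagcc
Creld2, chr15:88819510-88819548 (+): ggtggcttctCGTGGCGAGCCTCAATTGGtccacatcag
Derl3, chr10:75893232-75893270 (+): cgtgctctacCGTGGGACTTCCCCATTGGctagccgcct
Herpud1, chr8:94386367-94386397 (+): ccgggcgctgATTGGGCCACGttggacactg
Dnajb11, chr16:22857842-22857872 (+): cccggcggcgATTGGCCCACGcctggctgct
A match describes letters only. *Sdf2l1*, *Dnajb9*, and *Pdia4*, which recur below, had none of these letters in their windows.

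The libraries held 74083947 to 98294915 UMIs in 4400 to 10722 barcodes, and any 2 libraries shared 7 to 27 barcodes. Cells were grouped without using the 37 genes, and names such as β cell rest on marker genes and not on labels of the study. Most β cells lay in 2 gene-rich clusters with median detected genes of 5545 and 4782 (583 to 816 cells per WT and 939 to 1065 per KO library). A further cluster of 601 cells had a median of 2338 detected genes and is called gene-poor β cells here. Only 3 of 10 β cell markers were raised in it, its leading genes included *Dnah12* and the heat shock gene *Hspa1b*, and 70.4% to 76.7% of its UMIs came from 7 hormone genes, against 42.8% to 47.7% in gene-rich β cells. *Ywhaz* was at 160.2, 174.4, and 170.6 CPM (UMIs per 1000000 UMIs of the class) in gene-rich β cells of the WT libraries and at 18.6, 16.4, and 18.7 CPM in those of the KO libraries, where 31.4% to 43.5% of cells still held a UMI. Such KO cells do not enter the β cell values below, which left 569 to 644 gene-rich and 34 to 100 gene-poor KO cells per library, against 583 to 816 and 92 to 196 WT cells. The gene-rich KO cells left had median UMIs of 27561, 22141.5, and 29750 in replicates 1 to 3, against 29909, 22742, and 31080 before. The part of this depth difference in the values below was not tested. Free insulin RNA was present, since hormone genes gave 2.15% to 19.1% of the UMIs of B cells, lowest in WT library 1 and highest in KO library 2. Levels are therefore given as CPM of all UMIs or, where said, as hormone-free CPM, in which the 7 hormone genes are left out of the total.

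In gene-rich β cells, the chaperones *Hspa5*, *Sdf2l1*, and *Dnajb9* were lower in each KO library than in each WT library. *Hspa5* (ENSMUSG00000026864, chr2:34771970-34777547 on GRCm38) encodes BiP. Its CPM, scaled by edgeR's TMM factors, in replicates 1 to 3 was 1373, 991, and 1007 for WT and 859, 687, and 907 for KO. The groups did not overlap, and WT library 1 stood above the rest. The log2 fold change of KO over WT was −0.46 (SE 0.15), with an unadjusted p of 0.0161 and an adjusted p of 0.873 by edgeR's quasi-likelihood test (Benjamini-Hochberg over 9586 genes). Without WT library 1 the log2 fold change was −0.29. *Sdf2l1*, a partner of the J-domain chaperones of BiP, was at 85.7, 67.2, and 64.6 in WT and at 52.9, 50.7, and 52.8 in KO. The KO libraries were close together and below every WT library (log2 fold change −0.48, SE 0.11, unadjusted p = 0.00203). *Dnajb9*, a J-domain co-chaperone of BiP, was at 242.7, 189.5, and 204.3 in WT and at 171.6, 182.8, and 181.4 in KO. Here too the groups did not overlap, with WT library 2 close to the highest KO library (−0.25, SE 0.10, unadjusted p = 0.0344), and without WT library 1 the log2 fold change was −0.14.

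The other chaperones differed less. *Hsp90b1*, the ER form of Hsp90, was at 861.7, 653.8, and 697.6 in WT and at 655.5, 559, and 644.9 in KO, with overlapping groups (log2 fold change −0.25, SE 0.12, and −0.12 without WT library 1). *Creld2* was at 83.5 in WT library 1 and between 44.7 and 53.7 in the other 5 libraries. *Dnajb11* and *Manf*, which both act with BiP, had log2 fold changes of −0.19 and −0.15, and *Hyou1*, which exchanges nucleotide on BiP, had −0.13. The lectin chaperones *Calr* and *Canx* and the co-chaperone *Dnajc3* lay at −0.07, −0.05, and −0.04. The estimate was below 0 for all 11 chaperones, with a median of −0.19.

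Among the disulfide genes, *Pdia4*, an isomerase, was at 112.7, 107.4, and 94.2 TMM-scaled CPM in WT and at 83.4, 78.7, and 79.1 in KO. Every KO library lay below every WT library, and its log2 fold change was −0.38 (SE 0.08, unadjusted p = 0.00148, adjusted p = 0.873). The other isomerases overlapped between genotypes, with *P4hb* at −0.13, *Pdia6* at −0.04, and *Pdia3* at 0.00. *Ero1lb*, the oxidase that recharges them, was at 352.8, 407.5, and 332.1 in WT and at 325.7, 434.3, and 341.3 in KO. Its groups overlapped fully (0.01, SE 0.13).

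The ERAD and sensor genes overlapped between genotypes in gene-rich β cells. *Herpud1*, a scaffold of the ERAD complex, was at 290.7, 154.4, and 176.1 in WT and at 180.5, 139.6, and 173.2 in KO. Its log2 fold change of −0.33 (SE 0.22) rested on WT library 1, and without that library it was −0.01. The ligase subunits *Sel1l* and *Syvn1* were at −0.23 and −0.19, the channel-like *Derl1* and *Derl2* at −0.07 and −0.11, the selenoprotein *Selenok* at −0.05, and the mannose-trimming factor *Edem1* at 0.13. *Derl3* did not pass the detection filter in this class. Of the sensors, *Atf6* was at −0.19, *Xbp1* at −0.09, and *Ern1* at −0.06, and counts per gene do not separate spliced from unspliced *Xbp1*.

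The entry genes went both ways, with 5 estimates above and 5 below 0. *Sec11c*, a catalytic subunit of signal peptidase, was at 153.6, 153.1, and 139.7 in WT and at 159.3, 192.2, and 173.5 in KO. It was the single gene of the 37 with all KO libraries above all WT libraries (log2 fold change 0.23, SE 0.09, unadjusted p = 0.0275, adjusted p = 0.873). The translocon subunit *Sec61b* was at 0.16, with KO library 2 highest at 426.5 and the other libraries between 280.8 and 324.3. *Ssr4* of the translocon-associated complex was at 0.20, while *Ssr1*, *Ssr2*, and *Ssr3* lay at −0.07, 0.08, and −0.12. *Sec61a1*, the pore of the channel, was at −0.10, *Spcs1* and *Spcs2* of signal peptidase at 0.08 and −0.02, and *Ostc* of the oligosaccharyltransferase at −0.02.

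**Figure D1:**
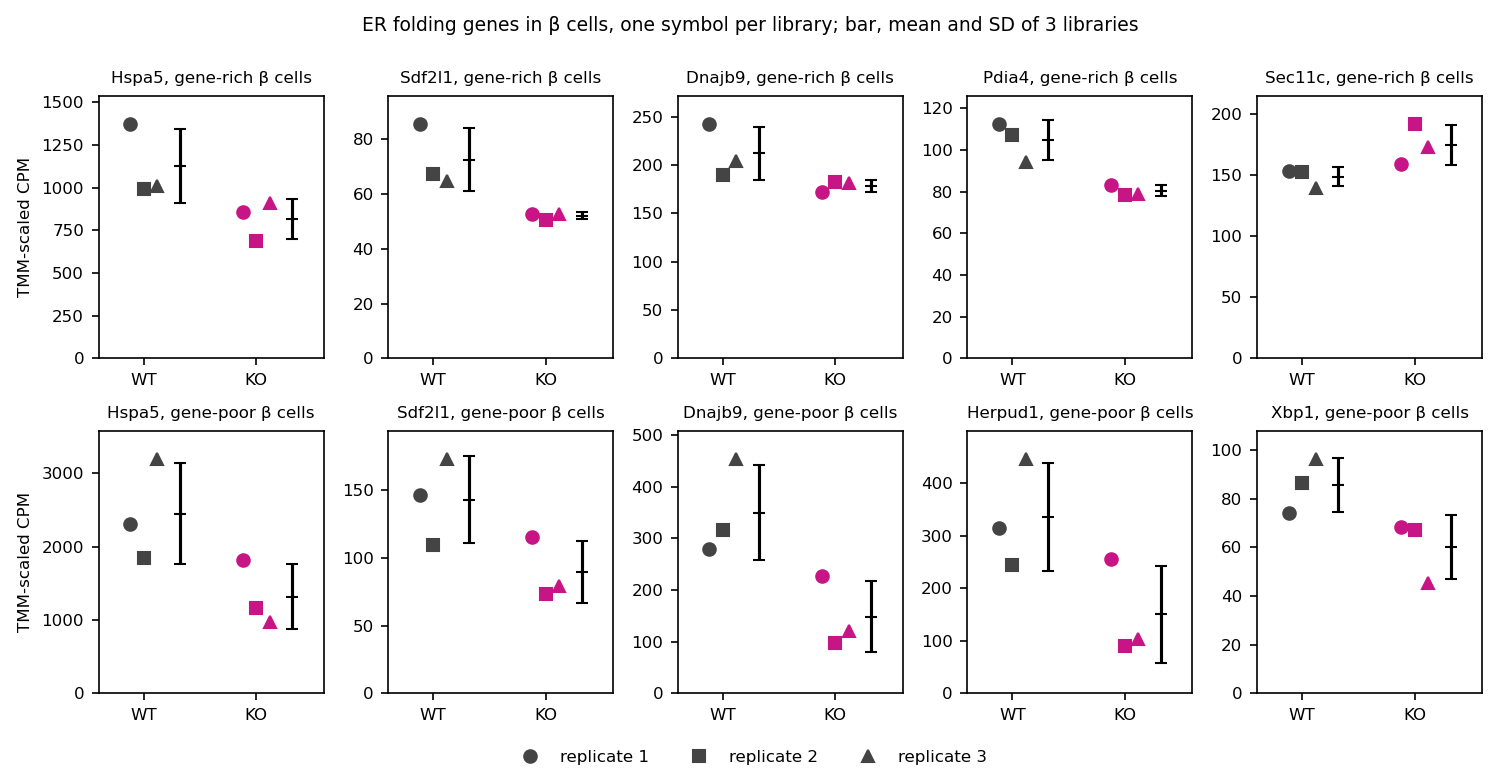
Levels of named genes in β cells by library. The y axis is TMM-scaled CPM from 0, each symbol is 1 library (circle, square, and triangle for replicates 1 to 3), gray is WT and magenta KO, and bars are the mean and SD of 3 libraries. The upper row shows gene-rich and the lower row gene-poor β cells. KO libraries lie below WT libraries for *Hspa5* in both rows (for example 859, 687, and 907 against 1373, 991, and 1007 in gene-rich β cells) and, in the upper row, above them for *Sec11c*.

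In total, 36 of the 37 genes passed the filter in gene-rich β cells and 0 were called at an FDR under 0.05 with an absolute log2 fold change above 0.1, where 0.0104% of the genes tested were called. That 1 gene was *Ywhaz*, whose KO level was set to 0 by the choice of cells. DESeq2 also called 0 of the 36. An unadjusted p under 0.05 was reached by 5 of the 36 genes, against 5.27% of all genes. It was reached by 9 without WT library 2, by 3 without KO library 3, and by 4 to 6 on leaving out 1 of the remaining libraries. KO libraries lay below all WT libraries for 4 genes (5.71% of all genes) and above them for 1 gene (6.02% of all genes). The estimate was below 0 for 28 of 36 genes, against 51.7% of all genes, with a median of −0.08 against −0.0045 over all genes. With the KO cells that held a *Ywhaz* UMI kept, 28 of 36 estimates were below 0 and the median was −0.07. With the replicate number as a block, 0 were called (0.0939% of all genes), 14 had an unadjusted p under 0.05 (13.8% of all genes), and the lowest adjusted p was 0.0601, for *Pdia4* and *Sdf2l1*.

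In gene-poor β cells, *Dnajb9*, *Herpud1*, and *Hspa5* had the lowest p-values of the 37 genes and were lower in KO in their means. *Dnajb9* was at 279.6, 315.9, and 453.9 TMM-scaled CPM in WT libraries and at 226.3, 98.3, and 120.5 in KO libraries. WT library 3 was highest, KO library 1 was nearest to WT, and the groups did not overlap. The log2 fold change was −1.19 (SE 0.24, unadjusted p = 2.88e-05), and the edgeR adjusted p over 5360 genes was 0.0514. *Hspa5* was at 2305, 1849, and 3197 in WT and at 1817, 1169, and 971 in KO. KO library 1 was just below WT library 2, and the log2 fold change was −0.89 (SE 0.25, edgeR adjusted p = 0.351). *Herpud1* was at 314.1, 244.6, and 446.1 in WT and at 256.4, 90.2, and 104.2 in KO. KO library 1 lay above WT library 2, so the groups overlapped, and the log2 fold change was −1.10 (SE 0.27, edgeR adjusted p = 0.184). Without KO library 1 it was −1.78.

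The remaining members with an unadjusted p under 0.05 in gene-poor β cells were also lower in KO. They were *Sdf2l1* (log2 fold change −0.64), *Dnajb11* (−0.51), *Pdia4* (−0.51), *Selenok* (−0.43), *Derl3* (−1.15), *Xbp1* (−0.48), and *Sec61a1* (−0.48). Without KO library 1, *Dnajb11* was at −0.92, *Pdia4* at −0.78, and *Derl3* at −1.82. Without WT library 3 *Dnajb11* was at −0.28, and without WT library 1 *Derl3* was at −0.16. *Sec61a1* was at 91.8, 93.2, and 98.0 in WT and at 72.3, 62.3, and 66.5 in KO, with no overlap. *Xbp1* was at 74.1, 86.6, and 96.5 in WT and at 68.4, 67.2, and 45.2 in KO, also with no overlap. *Derl3*, a derlin found mainly in secretory cells, was at 11.5, 1.32, and 5.44 in WT and at 4.30, 0, and 3.77 in KO, so its estimate rests on few UMIs. Genes with estimates near 0 were *Calr* (0.01), *Atf6* (−0.02), *Ssr2* (−0.02), *Sec61b* (−0.06), and *Ostc* (−0.06), and the 5 genes with estimates above 0 were *Calr*, *Sel1l*, *Edem1*, *Ern1*, and *Sec11c*.

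**Figure D2:**
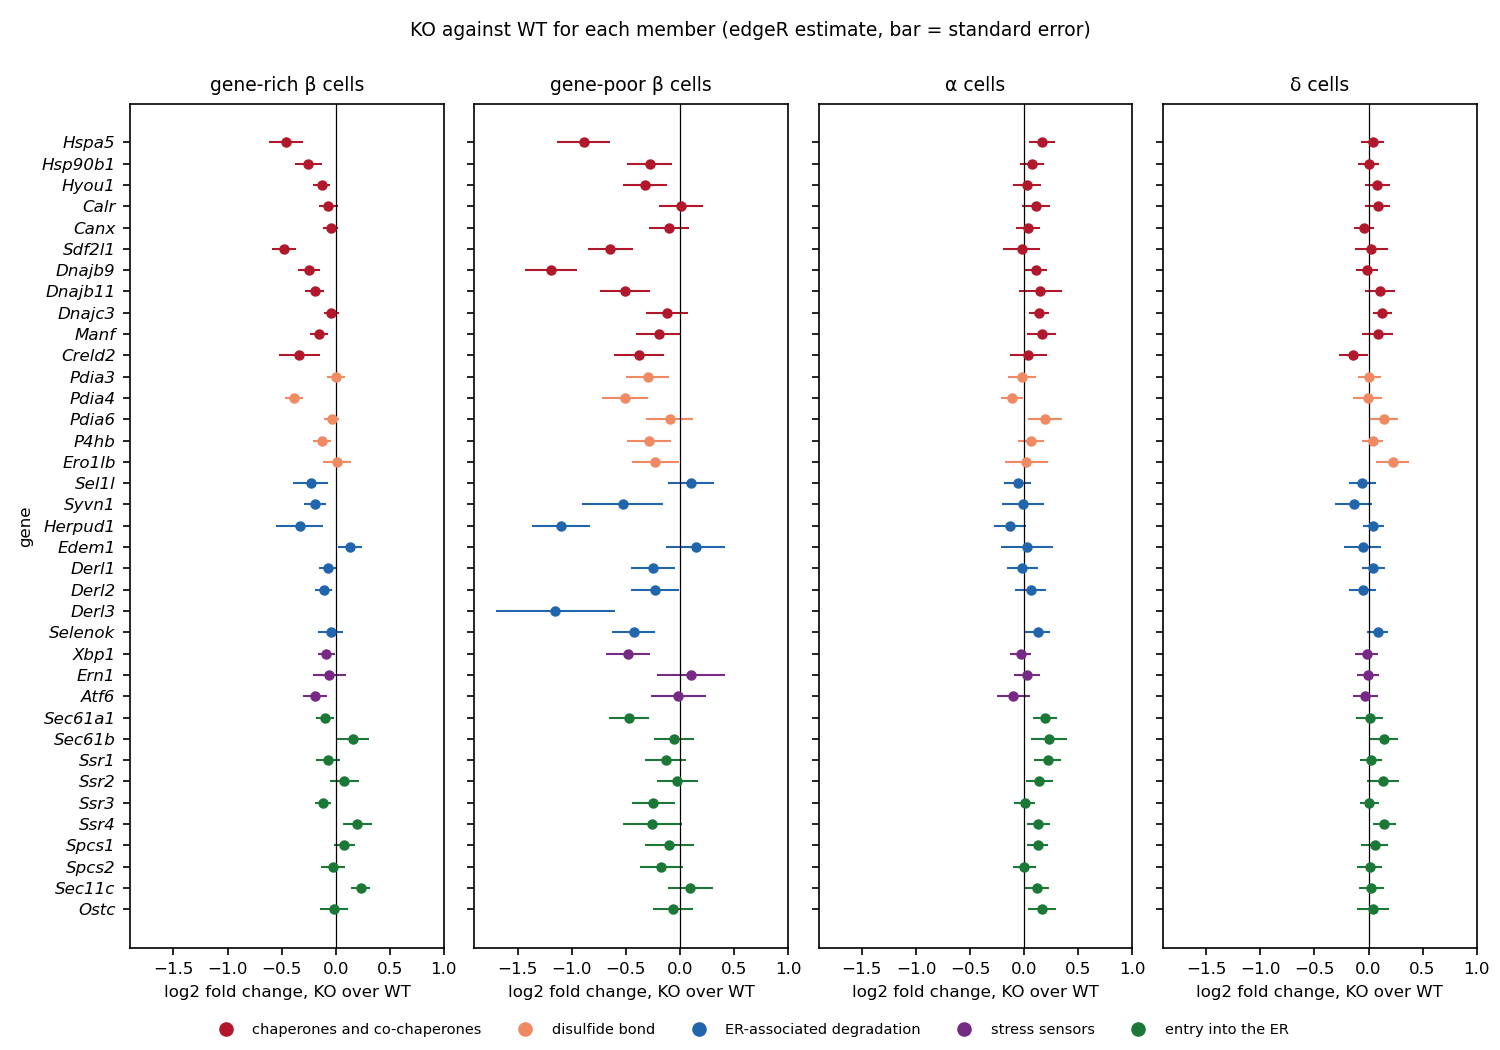
Log2 fold change of KO over WT for each gene (x axis), with genes on the y axis coloured by role, in gene-rich β, gene-poor β, α, and δ cells. Points are edgeR estimates from 3 WT and 3 KO libraries, and bars are standard errors. *Hspa5* lies at −0.46 in gene-rich β cells, at −0.89 in gene-poor β cells, and at 0.17 and 0.04 in α and δ cells. *Derl3* is drawn where it passed the detection filter.

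All 37 genes passed the filter in gene-poor β cells, and 0 were called, where 0.0373% of genes tested were called. DESeq2 called 1, *Dnajb9*, with an adjusted p of 0.0385, and 3 of all 5360 genes. An unadjusted p under 0.05 was found for 10 genes (6.42% of all genes), all of them lower in KO (4.05% of all genes). This count was 6 without WT library 3, 6 without KO library 2, 5 without KO library 3, and 10 or 11 on leaving out 1 of the remaining libraries. KO libraries lay below all WT libraries for 4 (7.44%), and estimates were below 0 for 32 (51.0%). The median was −0.25 against −0.01 over all genes tested. With the replicate number as a block, 4 genes were called lower, against 0.541% of all genes: *Dnajb9* (adjusted p = 1.56e-06), *Herpud1* (4.13e-06), *Hspa5* (4.42e-05), and *Sdf2l1* (0.0368). The labels do not say what a shared replicate number stands for. In gene-poor β cells, deviations of same-numbered WT and KO libraries from their group means had correlations of 0.086, 0.146, and −0.027. The block thus has little basis in this class. Without the block, single libraries decided the count. It was 2, 3, and 2 without WT library 1, WT library 2, or KO library 1, and 0 without any of the other 3 libraries. Of all 5360 genes, 25, 12, and 10 were called without WT library 1, WT library 2, or KO library 1. Without WT library 3, KO library 2, or KO library 3, 1, 1, and 3 of all genes were called. Without WT library 3, the adjusted p of *Dnajb9* was 0.992 and its log2 fold change −0.94. With the KO cells that held a *Ywhaz* UMI kept, 0 genes were called and *Dnajb9* was at −0.81 (adjusted p = 0.797).

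Markers of other cell types were checked in the same sums. In gene-poor β cells the summed level of 6 macrophage markers was 23.3 to 34.4 CPM in WT and 12.7 to 21.3 CPM in KO. In those 6 libraries *Adgre1* was at 0 throughout, and *C1qa* gave 396 UMIs against 0 to 24 for each of the other 5 markers. The sums of α, δ, acinar, and endothelial markers overlapped between genotypes in both β cell classes. The summed level of 10 immediate early and heat shock genes was 191.3 to 274.8 CPM in WT and 152.8 to 498 CPM in KO gene-poor β cells. In gene-rich β cells it was 246.9 to 354.3 CPM in WT, highest in library 1, and 170.8 to 286.6 CPM in KO. The part of these markers in the results above was not tested.

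The genotype difference of gene-poor minus that of gene-rich β cells was −0.94 for *Dnajb9* (SE 0.27, limma-voom unadjusted p = 0.00157, adjusted p = 0.349). It was −0.82 for *Herpud1*, −0.41 for *Xbp1*, and −0.41 for *Sec61a1*, each with an unadjusted p under 0.05, and −0.53 for *Hspa5* (unadjusted p = 0.0648). None of 36 genes was called (0.0104% of all genes), and 4 of 36 had an unadjusted p under 0.05 against 7.69% of all genes. Without KO library 1, 1 of the 36 genes was called, as were 11 of all 9586 genes.

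In α cells, most estimates were above 0. *Hspa5* was at 520.4, 637.7, and 615.2 TMM-scaled CPM in WT and at 645.1, 623.2, and 724.9 in KO, with overlapping groups (log2 fold change 0.17, SE 0.12). *Dnajc3* was the 1 gene whose KO libraries, at 191.0, 199.8, and 202.7, lay above its WT libraries, at 178.1, 173.2, and 188.1. All 10 entry genes had estimates above 0, from 0.00 for *Spcs2* to 0.23 for *Sec61b*. In total, 27 of 36 genes had estimates above 0 (49.5% of all genes), 0 were called (0% of 8921 genes) by edgeR and by DESeq2, and 0 had an unadjusted p under 0.05, as did 307 of all genes. The number above 0 was 20 without WT library 1 and 21 without KO library 2. It was 26 to 31 on leaving out 1 of the remaining libraries. The difference of α minus gene-rich β cells was 0.62 for *Hspa5* (SE 0.28, limma-voom unadjusted p = 0.0341, adjusted p = 1.00).

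In δ cells, 25 of 36 estimates were above 0 (49.5% of all genes), 0 were called (0% of 9776 genes) by either tool, and 0 had an unadjusted p under 0.05, as did 335 of all genes. Without WT library 1 the count above 0 was 9, and it was 16 at Leiden resolution 2 and 15 with the 37 genes kept in the clustering, so the direction of most estimates turned in each of these. *Hspa5* was at 759.4, 1077, and 990.1 in WT and at 937.5, 997.8, and 965.5 in KO, so the KO libraries lay within the WT range (0.04, SE 0.11). The differences of δ minus gene-rich β cells with an unadjusted p under 0.05 were 0.53 for *Sdf2l1* and 0.39 for *Pdia4*, and 0 were called in δ or α cells (0.0104% of all genes in each).

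Of the non-endocrine classes, endothelial cells and macrophages could be tested on their own, with 0 of 36 genes called in each (0% of 7102 and 0% of 7312 genes). An unadjusted p under 0.05 was found for 0 genes in endothelial cells (206 of all genes) and for 2 genes in macrophages (5.32% of all genes), *Ssr4* at 0.30 (SE 0.13) and *Spcs2* at 0.28 (SE 0.12). In macrophages this count was 0 without WT library 1 or without KO library 3 and 1 without KO library 2, and *Ssr4* was at 0.18 without WT library 1. DESeq2 called 0 of the 36 in either class. In macrophages *Ssr4* was at 388.0, 490.4, and 504.0 in WT and at 540.0, 563.5, and 593.3 in KO. *Ssr4*, *Spcs2*, *Selenok*, and *Ostc* had all KO libraries above all WT libraries there (5.22% of all genes). In the sum of all non-endocrine cells, B and T cells numbered 1206 and 508 of 2229 in WT library 2 and 1593 and 1399 of 3681 in KO library 2. There 0 of 35 genes were called (0% of 5620 genes) by edgeR or DESeq2, 0 had an unadjusted p under 0.05, as did 46 of all genes, and 28 estimates were above 0 (50.2% of all genes). *Ppy*-led cells numbered 15 to 55 per library and were not tested.

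Related ER genes from 5 wider lists were fitted with the 37 genes, and 0 were called in any list in either β cell class by edgeR. In gene-rich β cells an unadjusted p under 0.05 was reached by 6 export genes and by 1 gene of each other list, and in gene-poor β cells by 6 export, 6 entry, 3 ERAD, 0 folding, and 0 sensor genes. Over all genes the share was 5.27% in gene-rich and 6.42% in gene-poor β cells, and 51.7% and 51.0% of estimates were below 0. Of 34 tested genes of ER export, 28 had estimates below 0 in gene-rich β cells, with *Yipf5* (−0.23) and *Tmed5* (−0.22) at the lowest p. In gene-poor β cells 27 of 33 export genes lay below 0, led by *Sar1b* (−0.61) and *Sec16a* (−0.74). Of the other entry genes, 21 of 39 were below 0 in gene-rich β cells, with *Srp54a* (−0.24) and *Stt3a* (−0.20) first, and 29 of 36 in gene-poor β cells, with *Srp19* (−0.66) and *Srp54a* (−0.91) first. Other ERAD genes were below 0 in 20 of 24 and 13 of 20 cases, with *Herpud2* (−0.20) and *Nploc4* (−0.20), and *Selenos* (−0.64) and *Fam8a1* (−0.82), at the lowest p. Other folding genes were split, with 11 of 30 and 14 of 26 below 0, and *Ero1l* (−0.32) and *Erp29* (0.18), and *Ppib* (−0.38) and *Calu* (−0.58), at the lowest p. Other sensor and stress genes were below 0 in 7 of 14 and 6 of 10 cases, with *Ddrgk1* (0.20) and *Creb3l1* (−0.17), and *Eif2ak3* (−0.40) and *Creb3l1* (−0.36), first.

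Gene-poor and gene-rich β cells were then compared within each mouse. Since the classes were cut from the same cells, these ratios are a description without a test. Counts are over the genes that passed the detection filter in both classes, 36 of the 37. *Derl3*, the other one, passed it in gene-poor β cells only and is not counted. As CPM of all UMIs, 4 of 36 genes were higher in gene-poor β cells in all 6 libraries, against 0.638% of 5332 genes. They were *Hspa5* (mean log2 ratio 0.86, SD 0.52), *Sdf2l1* (0.85, SD 0.32), *Ssr4* (0.73, SD 0.35), and *Selenok* (0.43, SD 0.25). In 22 genes the ratio was below 0 in all 6 libraries, against 90.3% of all genes, and the median was −0.60 against −1.40 over all genes. The lowest ratios belonged to *Ern1* (−2.46), *Edem1* (−2.12), *Atf6* (−1.93), *Sel1l* (−1.88), and *Derl1* (−1.55).

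With hormone genes left out of the total, the direction of the median turned, to 0.44 against −0.37 over all genes. On this scale *Hspa5* was at 2455, 1776, and 1821 hormone-free CPM in gene-rich β cells of WT libraries and at 1525, 1169, and 1606 in those of KO libraries. In gene-poor β cells it was at 7679, 7063, and 11235 in WT and at 6389, 4376, and 3563 in KO. Each library was higher in its gene-poor cells, by 3.73-fold on average. *Sdf2l1* was 3.70-fold, *Ssr4* 3.41-fold, and *Selenok* 2.76-fold higher. *Derl3* was at 38.3, 5.05, and 19.1 hormone-free CPM in gene-poor β cells of WT libraries and at 15.1, 0, and 13.8 in those of KO libraries, against 1.15 to 6.39 in gene-rich β cells, so KO library 2 was lower and the others higher in their gene-poor cells. In all, 21 of 36 genes were higher in all 6 libraries (11.6% of all genes) and 7 lower (39.9%). The 7 were *Ern1*, *Edem1*, *Atf6*, *Sel1l*, *Derl1*, *Derl2*, and *Ssr1*. *Ern1*, for example, was at 92.9 to 148.7 hormone-free CPM in gene-rich and at 24.5 to 64.5 in gene-poor β cells, with no overlap.

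**Figure D3:**
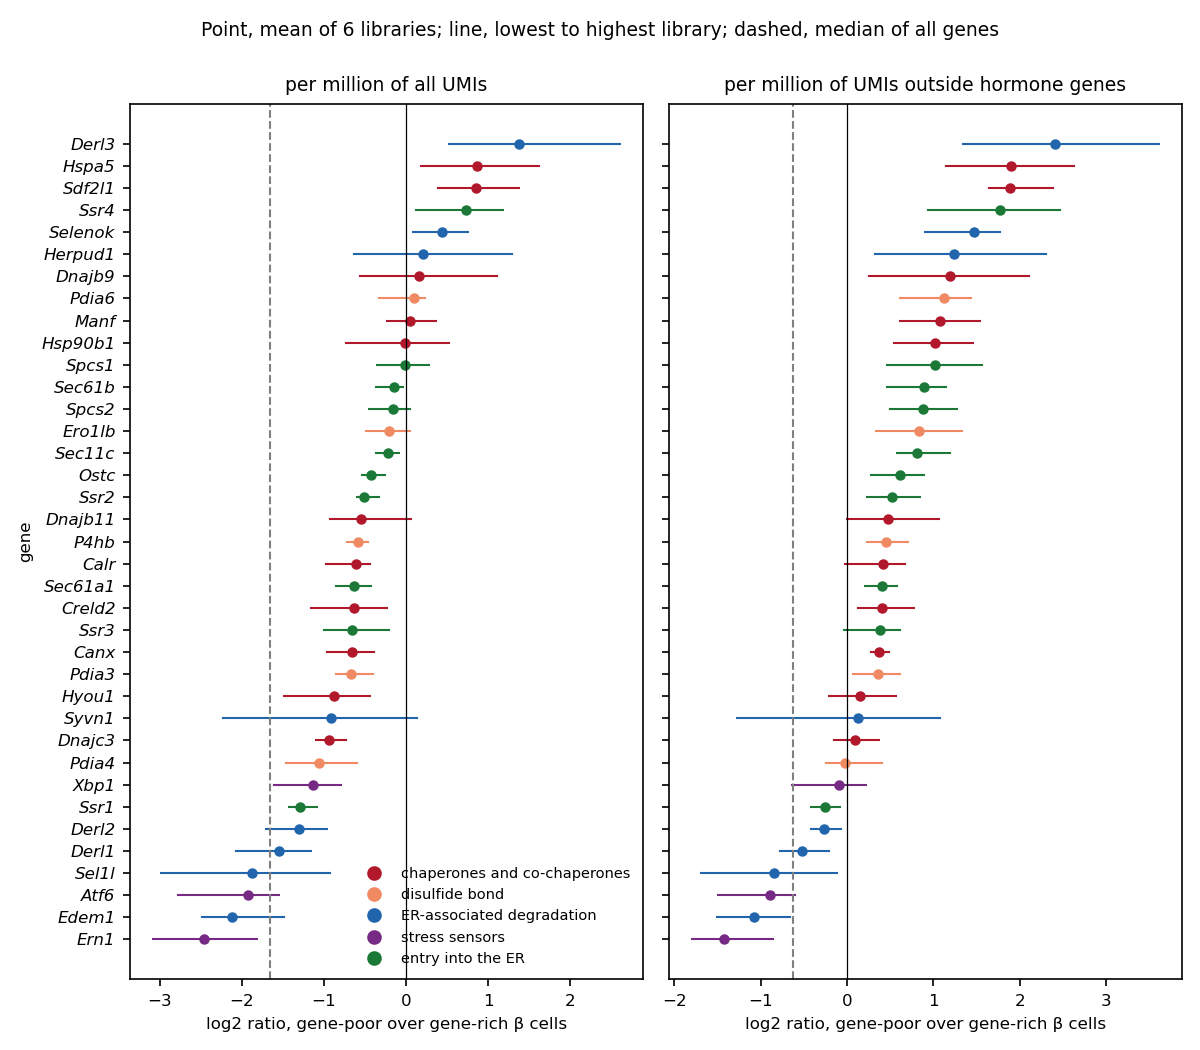
Log2 ratio of gene-poor over gene-rich β cells for each gene (x axis), with genes on the y axis coloured by role. Points are means of 6 libraries, lines run from the lowest to the highest library, and the dashed line is the median of all genes detected in either class, −1.66 as CPM of all UMIs (left) and −0.62 as hormone-free CPM (right). *Hspa5* and *Sdf2l1* are near the top and *Ern1* at the bottom of both panels, and *Derl3* is drawn with 0.5 added to each count, which raises its ratio in KO library 2, where it had 0 UMIs in gene-poor cells.

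Between cell types, the ER genes of β cells were led by *Ero1lb*. As hormone-free CPM it was at 578.5 to 739.1 in gene-rich β cells, at 70.4 to 139.5 in α cells, at 67.0 to 108.7 in δ cells, and at 25.9 to 102.4 in endothelial cells. The level in gene-rich β cells was 6.53-fold that of α cells and 8.10-fold that of δ cells, with no overlap, and the share of free β cell RNA in the other classes was not measured. It was the gene of the list with the largest ratio against α, δ, *Ppy*-led, endothelial, stellate, and macrophage cells. ERAD genes followed. *Edem1* was at 104.0 to 140.8 in gene-rich β cells and at 16.1 to 28.7 in α cells (log2 ratio 2.53, SD 0.41), *Sel1l* was at 175.5 to 332.2 and at 58.9 to 70.4 (1.92, SD 0.37), and *Derl1* had a log2 ratio of 1.74 (SD 0.26). *Sdf2l1* (1.57), *Creld2* (1.40), and *Herpud1* (1.29) came next.

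The genes of entry into the ER had the lowest ratios. *Ssr2* was at 136.9 to 191.2 in gene-rich β cells, at 180.0 to 279.1 in α cells, and at 173.4 to 280.3 in δ cells, and it was lower than in α and δ cells in all 6 libraries (log2 ratios −0.44 and −0.53). *Ssr4* (−0.41 against α cells and −0.53 against δ cells) and *Ostc* (−0.16 and −0.40) were similar in order. In all, 31 of 36 genes were higher in gene-rich β than in α cells in all 6 libraries as hormone-free CPM. The share was 34.8% over all genes that passed the filter in either class, and the median was 0.53 against 0.10. A gene low in α, δ, or *Ppy*-led cells could enter these counts by its level in gene-rich β cells alone. As CPM of all UMIs, 14 of 36 were higher in all 6 libraries, against 15.4%, with a median of 0.19. Against δ cells, 17 of 36 were higher in all 6 libraries (28.3%), with a median of 0.19 that became −0.23 as CPM of all UMIs. Against *Ppy*-led cells 21 were higher in all 6 libraries as hormone-free CPM (24.0%), with *Edem1* (2.55) second to *Ero1lb* and *Ostc* (−0.61) lowest.

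Of the non-endocrine classes, as hormone-free CPM, endothelial cells were below gene-rich β cells in all 6 libraries for 33 of 36 genes (50.8% of all genes). The exceptions were *Selenok*, *Dnajb11*, and *Syvn1*. The counts and ratios that follow are on the same scale unless said. All counts and shares here are over genes that passed the detection filter in either class. A gene low in a non-endocrine class could thus enter by its level in gene-rich β cells alone. Hormone genes gave 42.8% to 47.7% of UMIs in gene-rich β cells and 2.64% to 11.9% in endothelial cells, so this scale raises the ratios. Macrophages were above gene-rich β cells in all 6 libraries for *Calr* (log2 ratio of β over macrophage −0.67), *Dnajb11* (−0.81), and *Pdia6* (−0.25), and β cells were above macrophages in all 6 for 28 genes (60.6%), with *Ern1* (2.64), *Dnajb9* (2.57), and *Herpud1* (2.36) after *Ero1lb*. Stellate cells, with 14 to 91 cells per library, were below β cells in all 6 for 17 genes (42.0%), and B cells for 34 (48.7%), led by *Ern1* (2.97). The medians against stellate cells and macrophages, 0.60 and 0.63, became −0.13 and −0.14 as CPM of all UMIs.

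**Figure D4:**
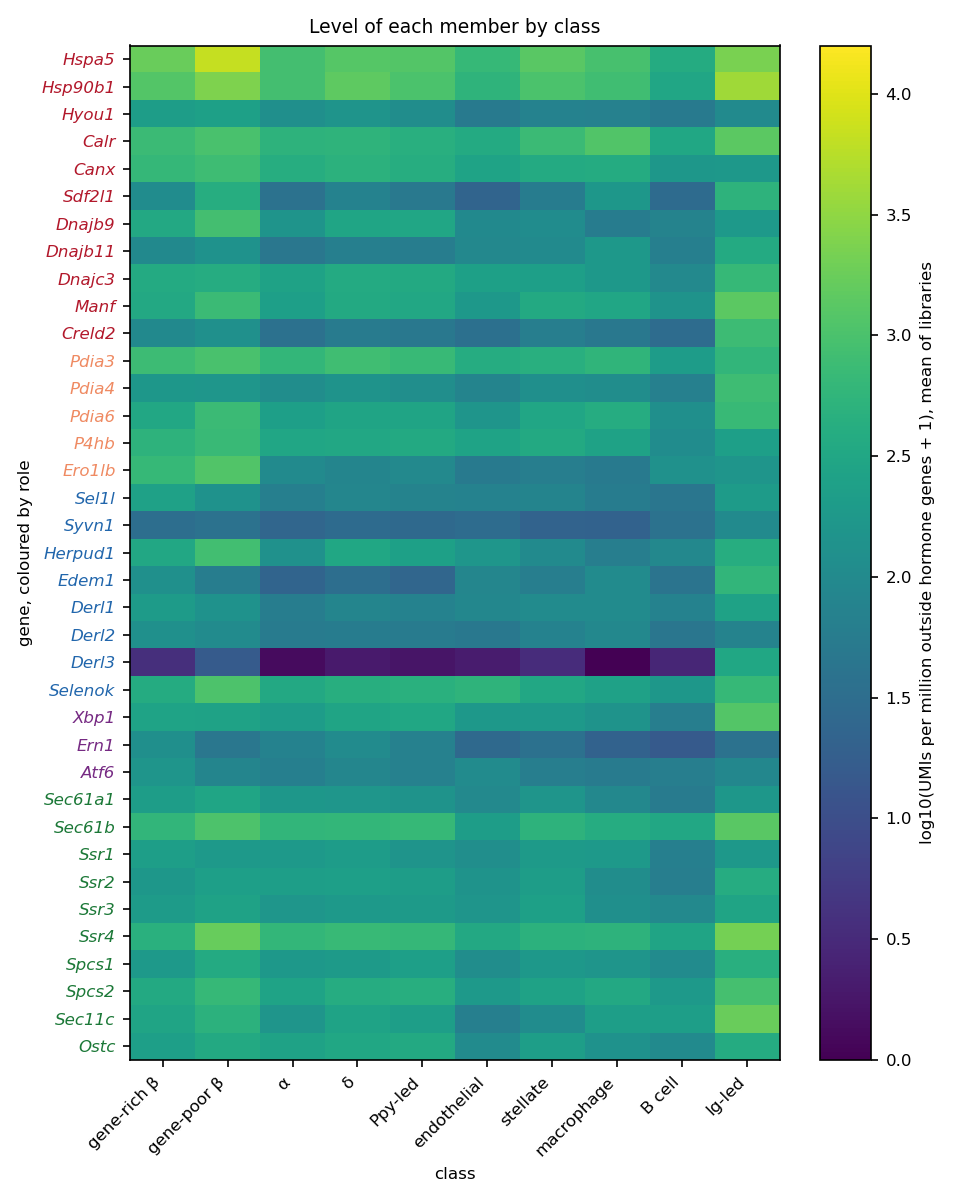
Mean level of each gene (y axis, label coloured by role) in each cell class (x axis), shown as log10 of hormone-free CPM plus 1, averaged over the libraries with that class. *Hspa5* averaged 1725 in gene-rich β, 6717 in gene-poor β, 878 in α, and 1258 in δ cells, and *Derl3* is dark in all columns except gene-poor β cells and cells led by immunoglobulin genes.

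A cluster led by immunoglobulin transcripts, *Jchain*, and *Igkc* was present in WT library 2 (56 cells) and KO library 2 (101 cells) and gave a measure of these genes in another secretory cell. *Derl3* was at 333.3 and 294.8 hormone-free CPM in it, against 5.85 and 4.44 in B cells of the same libraries and 1.15 to 6.39 in gene-rich β cells. *Creld2* was at 868.7 and 631.6, against 23.4 and 24.9 in B cells. *Xbp1*, at 1318 and 1040, was 14.4-fold above B cells. Over 1.5-fold in both libraries was reached by 32 of 37 genes as hormone-free CPM, against 7.33% of all genes. These counts are over genes that passed the detection filter in either class. A gene low in B cells could thus enter by its level in this cluster alone. *Ero1lb*, at 155.6 on average, did not follow (log2 ratio over B cells −0.04) and was 0.211 times the level of gene-rich β cells. *Canx* was at −0.29 over B cells. Hormone genes gave 5.63% and 10.5% of this cluster's UMIs in WT library 2 and KO library 2, and 8.78% and 19.1% in B cells. The part of free β cell RNA in the *Ero1lb* levels was not tested. As hormone-free CPM, gene-poor β cells exceeded α cells by over 1.5-fold in all 6 libraries for 21 of 36 genes (4.03% of all genes). These counts are over the genes that passed the filter in both classes. The largest ratios were those of *Ero1lb* (11.6-fold) and *Sdf2l1* (11.0-fold). Hormone genes gave 70.4% to 76.7% of UMIs in gene-poor β cells and 27.8% to 30.9% in α cells, so this scale raises the ratios.

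Finally, gene-rich β cells of each library were thinned to 5000 UMIs and ranked by *Hspa5* UMIs over UMIs outside the hormone genes. They were divided into 3 equal groups, of which the highest was set against the lowest (184 to 266 cells in each). The median thinned *Hspa5* count was 5 to 8 UMIs in the first and 1 UMI in the second. *Hspa5* itself was used to rank the cells and is no result. Of the other 35 genes that passed the filter, 29 were higher in the cells with the highest *Hspa5* in all 6 libraries, against 5.32% of 9585 genes, and 0 were lower in all 6. The median log2 ratio was 0.54, against −0.02 over all genes, on UMIs outside hormone genes. The largest ratios were those of *Sdf2l1* (1.53, SD 0.32), *Manf* (1.20), *Dnajb11* (1.06), *Pdia6* (0.96), and *Dnajb9* (0.93). The smallest were those of *Ern1* (−0.01, from −0.42 to 0.51 over libraries), *Ero1lb* (0.15), *Edem1* (0.18), *Ssr1* (0.27), and *Sel1l* (0.28).

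The genes with the largest ratios against α cells, *Ero1lb*, *Edem1*, and *Sel1l*, were among the 5 that varied least with *Hspa5* between β cells. *Dnajb9*, which was among the highest against macrophages, was among the 5 that varied most. These orders did not match throughout. *Sdf2l1*, also among the higher ratios against α cells, varied most, and *Ern1*, above *Dnajb9* against macrophages, varied least. The cells with the highest *Hspa5* also had more UMIs before thinning and a median mitochondrial share of 4.3% to 5.1% against 5.5% to 5.8%. Their hormone share was 41.7% to 47.1% against 37.0% to 45.6%. A larger hormone share leaves fewer UMIs outside the hormone genes, so this difference was partly set by the ranking. The part of depth and mitochondrial share in the ratios was not tested. In α cells, ranked in the same way with 17 to 78 cells in each group, 8 of 35 genes were higher in all 6 libraries (1.98% of all genes), with a median of 0.35. Without WT library 2 the count was 14 (3.61% of all genes), and without WT library 1 or KO library 3 it was 11. The 8 were *Syvn1* (0.79), *Manf* (0.70), *Pdia6* (0.67), *Calr* (0.59), *Hsp90b1* (0.50), *Dnajc3* (0.45), *Xbp1* (0.44), and *Pdia3* (0.25).

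**Figure D5:**
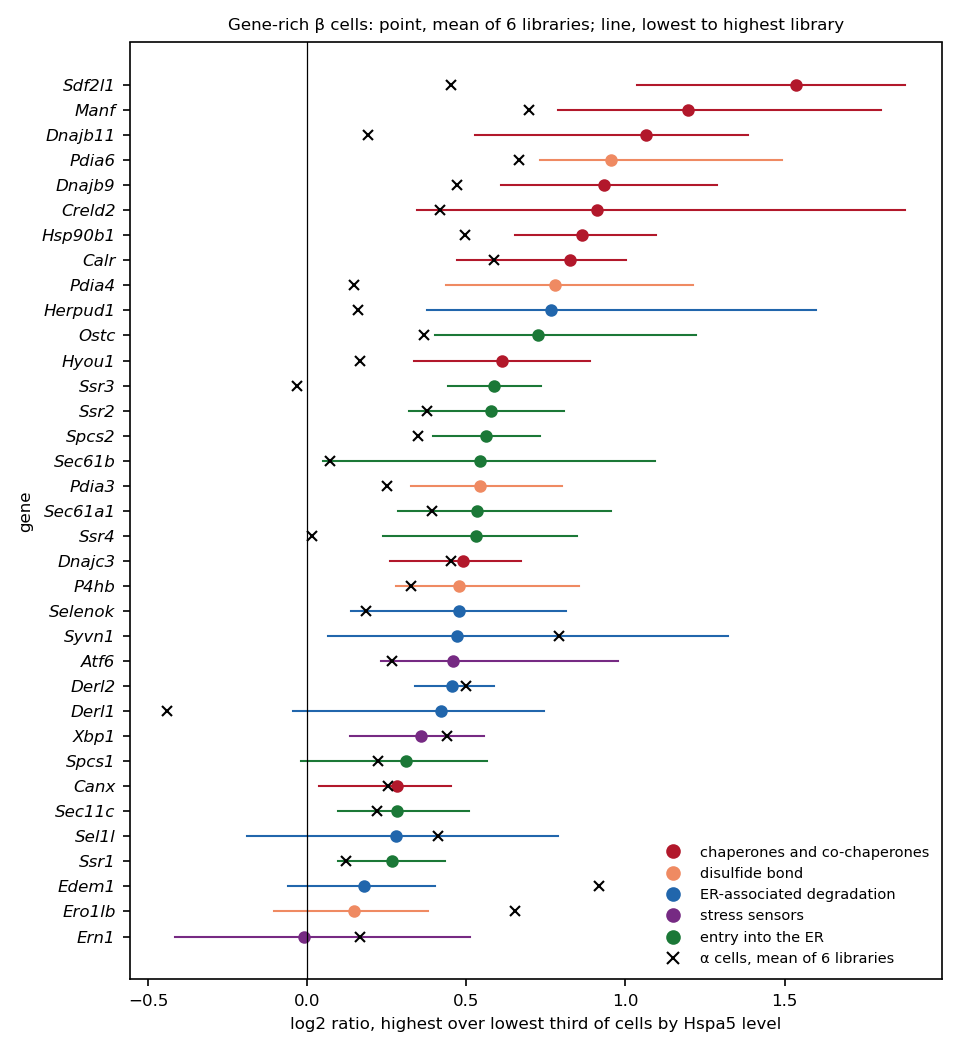
Log2 ratio between the highest and the lowest of 3 equal groups of gene-rich β cells ranked by *Hspa5* (x axis) for the other 35 genes (y axis, coloured by role), after thinning to 5000 UMIs. Points are means of 6 libraries, lines run from the lowest to the highest library, and crosses are means in α cells. *Sdf2l1* lies at 1.53 and *Ern1* at −0.01.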

How the data were processed

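Islet cells of 6 mice, 3 per genotype, were profiled in 1 single-cell library each. The authors made them with the Chromium Next GEM 3′ kit and Cell Ranger 6.0.2 on mm10, per the labels, and deposited raw UMI counts per gene and barcode as whole numbers. Further upstream settings were not given in the sources used here. Barcodes with fewer than 500 genes or more than 10% mitochondrial UMIs were left out. Doublets, taken in every library as the top Scrublet scores at 0.8% per 1000 barcodes, were left out too. This kept 1801 to 7479 cells per library. Cells were clustered (scanpy 1.11.5, Leiden resolution 1, 2000 variable genes without the 37 genes) and named from markers. Limits of this naming were set after the clusters were seen. UMIs were summed per library and class, and genes detected in over 15% of a class's WT or KO cells were compared with edgeR 4.0.16 (TMM, quasi-likelihood, Benjamini-Hochberg over all genes tested) in R 4.3.3. Genes were called at an FDR under 0.05 with an absolute log2 fold change above 0.1. DESeq2 1.42.0 was an alternative, and limma 3.58.1 (voom, library as a random block) tested differences between classes. Ratios of levels within a library had 0.5 added to each count. Same-numbered WT and KO libraries had positively correlated deviations from their group means in gene-rich β cells (correlations 0.573, 0.516, and 0.176) and not throughout in gene-poor β cells (0.086, 0.146, and −0.027). The number comes from the sample titles. The edgeR comparison without a block was tested on counts simulated for gene-rich β, gene-poor β, and α cells. Gene coordinates are those of GENCODE and promoters those of RefSeq, both on GRCm38, the build of the deposited counts. Members, gene lists, and tests were chosen with earlier results of these data known. Genes named are the 37 and the 2 lowest p of each wider list. Library values are given for those of the 37 without overlap in gene-rich β cells. They are also given for some of those with an unadjusted p under 0.05 and some extremes of the ratios. p-values measure the spread between mice, 3 per group.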

Additional observations from a re-analysis of the deposited data

How the results depend on the processing

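Of 9 main results, the 0 calls in gene-rich β, α, δ, and non-endocrine cells stayed at 0 in each alternative run for them, those with the replicate block and those leaving out a library included. In gene-poor β cells, 0 genes were called as reported, 1 with DESeq2, 1 with hormone genes left out of the counts, 2 without a filter on low counts, 0 to 3 on leaving out 1 library, 4 with the replicate block, and 3 with all KO β cells kept together with the block, a setting chosen after seeing the data. Over all genes tested in gene-poor β cells, 2 were called as reported, 3 with DESeq2, and 3 with hormone genes left out. That number was 27 without the filter, 1 to 25 on leaving out 1 library, and 29 with the replicate block. It was 21 with all KO β cells kept together with the block. The count by a genotype by class term was 0, and 0 to 1 on leaving out 1 library. Without KO library 1, 11 of all 9586 genes were called by the term for gene-poor β cells. The median log2 ratio of gene-poor over gene-rich β cells was −0.58 as CPM of all UMIs over all 37 genes with a filter passed in either class, −0.60 with the filter passed in both, a setting chosen after seeing the data, and it became 0.45 with hormone genes left out of the total, −0.37 at Leiden resolution 2, and −0.71 with gene-poor cells chosen cell by cell (−0.63 to −0.53 on leaving out 1 library). The median of the class medians of gene-rich β cells over other classes was 0.19 and became 0.60 outside hormone genes (0.11 to 0.25 on leaving out 1 library). The median ratio by *Hspa5* was 0.54 and became 0.70 when 5 equal groups of cells replaced 3 (0.49 to 0.55 on leaving out 1 library). The causes were not tested. Gene-poor KO β cells numbered 34 to 100 per library, which limits the depth there.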
